A study of Arabidopsis thaliana with 9 samples.

Results

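NAC domain transcription factors are a plant family named after NO APICAL MERISTEM, ATAF and CUP-SHAPED COTYLEDON. The 96 genes described here are those whose deposited description names a NAC domain containing protein or a NAC (No Apical Meristem) domain, out of 33602 genes in the table. The description matched 101 genes, and 5 of them are not analysed here. The match to the description used no expression value, although the family was chosen with earlier results of these data known. The genes lie on all 5 chromosomes, with 33 on chromosome 1, 4 on chromosome 2, 24 on chromosome 3, 10 on chromosome 4 and 25 on chromosome 5.

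The RNA came from whole siliques, the seed pods with their seeds, of Arabidopsis thaliana 12 days past anthesis. The scl15 group carried no working copy of SCL15, a GRAS family transcription regulator. The Napin:SCL15 group overexpressed SCL15 in seeds from the napin promoter, which drives storage protein synthesis there, and wild type (WT) plants, of the Columbia accession, were the background. Each group had 3 libraries, labelled as biological replicates, from greenhouse plants kept at 16 to 22 °C. Whether a group was 1 line or several, and whether plants were pooled, is not given in the sources used here.

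A NAC protein binds DNA through a conserved N-terminal domain and acts on transcription through a variable C-terminal part. Members set the borders between organs, build the integuments of the ovule, switch on secondary walls in xylem and carry responses to abscisic acid, jasmonate, drought and senescence. Some are held in membranes until they are cleaved, and the mRNAs of one clade are cut under the microRNA miR164. Siliques of this stage hold maturing embryos, endosperm and seed coat as well as the green pod wall, so the family is read here over several tissues at once.

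SCL15 itself was listed at 6.31, 6.39 and 4.82 TPM in scl15, at 526, 569 and 556 TPM in Napin:SCL15 and at 14.4, 16.2 and 10.7 TPM in WT. TPM is a length-corrected share of all transcripts scaled to a fixed total, which can be compared between genes. The order of the groups followed the labels, although the knockout was not at 0. The exact two-sided permutation p was 0.1 for either line against WT, the smallest that 3 against 3 libraries allow. Storage and oil markers of the embryo summed to 312640 to 316410 TPM in scl15, 408870 to 452140 TPM in Napin:SCL15 and 298310 to 319750 TPM in WT. Green tissue markers summed to 14665 to 18438 TPM in scl15, 4154 to 5605 TPM in Napin:SCL15 and 7953 to 10287 TPM in WT, and 2 of 3 root markers were at 0 throughout. The median log2 fold change of all 16555 genes tested was 0.10 in scl15 and -0.28 in Napin:SCL15 against WT. Libraries were also scaled by the median ratio of the tested genes above 0 in every library. The medians were then 0.01 and -0.002, a value near 0 being what that scaling sets. Comparisons are therefore given on both scales. In whole siliques, fewer cells of a type and less RNA per cell cannot be told apart.

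Of the 96 NAC genes, 48 were above 0 in all 9 libraries, 29 in some and 19 in none. The mean over all libraries was over 100 TPM for 4 genes, 10 to 100 TPM for 22, 1 to 10 TPM for 17 and under 1 TPM for 34 of those detected. A mean of 1 TPM or more was required for testing, which 43 members reached and 53 did not. The family summed to 1591, 1762 and 1477 TPM in scl15, to 1359, 1510.2 and 1587 TPM in Napin:SCL15 and to 1698, 2163 and 1695 TPM in WT. The ranges of scl15 and WT overlapped, and every Napin:SCL15 library lay below every WT library on this scale. Median-ratio scaling divides the Napin:SCL15 libraries by 0.8512, 0.8047 and 0.881, and the WT libraries by 1.036, 1.092 and 1.068. That raises the Napin:SCL15 sums and lowers the WT sums, so the separation is stated for the deposited scale only.

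NAC056, also called NARS1, was the highest NAC gene in every library and made up 23.8% to 33.5% of the family's TPM. With its relative NAM (NARS2) it is known to control the development and breakdown of the ovule integuments and thereby embryogenesis. The next highest means belonged to NAC083 (VNI2), a repressor of vessel formation, to ATAF1, NAC055 and NAC019, which act in abscisic acid and stress responses, to NAC041, to the miR164 target NAC080 and to NAM.

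**Figure D1:**
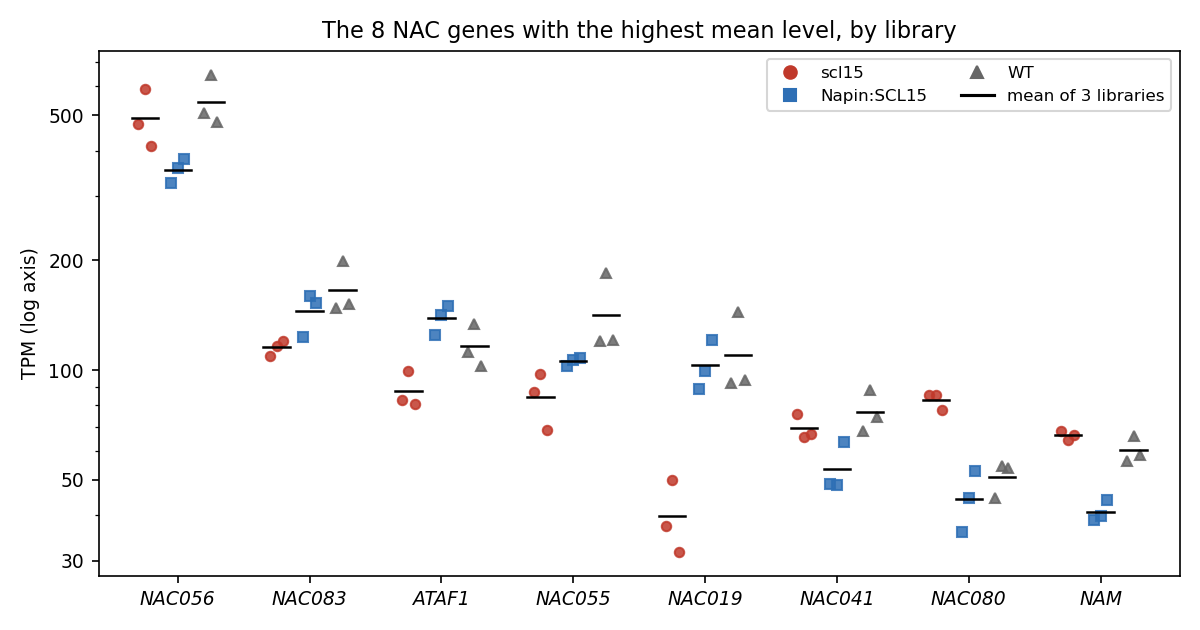
TPM on a log axis in each library for the 8 NAC genes with the highest mean, with scl15 as circles, Napin:SCL15 as squares, WT as triangles and bars for the mean of 3 libraries. NAC056 lies above all others in every library, the scl15 libraries of NAC019 (31.8 to 49.98 TPM) lie below all others of that gene, and those of NAC080 (77.9 to 85.7 TPM) lie above.

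In scl15 siliques, 3 NAC genes were higher than in WT and 5 were lower. The rises were NAC036, NAC080 and NAC1, and the falls were NAC019, NAC100, NAC055, NAC032 and NAC083. These 8 genes are 18.6% of the 43 tested, against 15.5% of all genes called in this comparison, so as deposited the share was near the background. The 5 falls are 11.6% of the tested members, against 6.31% of all genes called lower, and the 3 rises are 6.98%, against 9.18% called higher. A gene was called at a Benjamini-Hochberg adjusted p of 0.05 from limma on log2(TPM + 1), with 3 libraries per group. With median-ratio scaling 2 members were higher (4.65%, against 6.15% of all genes) and 9 lower (20.9%, against 7.77% of all genes). In either direction these 11 are 25.6% of the tested members, against 13.9% of all genes. Of the 8 genes called as deposited, 7 were among them. Without scl15 replicate 1, or without WT replicate 2, 3 members were lower, and without scl15 replicate 2 there were 9. Of all 16555 genes, 832, 769 and 1049 were called lower in the same order, against 1045 with all libraries.

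The largest fall was in the group of stress and hormone regulators. NAC019 encodes an activator of drought, abscisic acid and jasmonate responses and lies on the minus strand at chr1:19696923-19698482 (TAIR10.1), with 3 exons. It had 37.5, 49.98 and 31.8 TPM in scl15, against 92.3, 144 and 94.2 TPM in WT. Every scl15 library was below every WT library, and the mean was 2.77-fold lower in scl15. The log2 fold change was -1.44 ± 0.19 (SE, adjusted p = 0.00017, limma), and it stayed past the threshold under all 19 alternatives. The Napin:SCL15 libraries, at 88.6, 99.6 and 121 TPM, overlapped with WT (log2 fold change -0.08 ± 0.19, adjusted p = 0.79).

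NAC055, a close relative of NAC019 with overlapping functions, lies on the plus strand at chr3:5234457-5236196. It had 86.9, 97.8 and 68.3 TPM in scl15, against 120.2, 184 and 121 TPM in WT. The groups did not overlap, and the log2 fold change was -0.73 ± 0.17 (adjusted p = 0.0086, limma). Its Napin:SCL15 libraries, at 103, 107 and 108 TPM, also lay below every WT library. That difference was not past the threshold (log2 fold change -0.39 ± 0.17, adjusted p = 0.10, limma), and with median-ratio scaling the value was -0.06. NAC032, a stress and senescence regulator close to ATAF1, had 12.3, 14.02 and 14.4 TPM in scl15, against 19.0, 26.4 and 19.9 TPM in WT. Its groups did not overlap either, with a log2 fold change of -0.63 ± 0.14 (adjusted p = 0.0073, limma). The falls of both genes in scl15 stayed past the threshold under all 19 alternatives. Pod wall markers summed to 507 to 758 TPM in scl15 and 712 to 1094 TPM in WT (2 of 7 lower, 1 higher), endosperm markers to 3708 to 3764 TPM in scl15 and 4428 to 6928 TPM in WT (2 of 4 higher), and seed coat markers to 83.7 to 91.6 TPM in scl15 and 65.2 to 80.4 TPM in WT (2 of 6 higher). These marker counts are as deposited, where 6.31% of all genes were called lower and 9.18% higher. The part of these tissues in the falls was not tested.

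NAC036 moved the other way and had the largest log2 fold change of the 43 tested members. Overexpression of this gene is known to give dwarf plants with small leaves. It was listed at 10.3, 11.6 and 10.4 TPM in scl15, against 2.57, 4.41 and 2.35 TPM in WT. Every scl15 library was above every WT library, the mean was 3.46-fold higher in scl15, and the log2 fold change was 1.55 ± 0.22 (adjusted p = 0.00032, limma). Napin:SCL15 siliques had 1.42, 2.50 and 3.11 TPM and overlapped with WT. All 5 green tissue markers were called higher in scl15 as deposited, where 9.18% of all genes were. The part of green tissue in the rise of NAC036 was not tested.

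The group of stress and hormone regulators held 13 genes, of which 12 were tested. In scl15, 1 was higher, 3 were lower and 8 were not past the threshold, where 9.18% of all genes were called higher and 6.31% lower, and the group's median log2 fold change was -0.34, against 0.10 over all genes tested. With median-ratio scaling 6 were lower (7.77% of all genes) and 1 higher (6.15% of all genes), the added falls being ATAF1 (log2 fold change -0.50, adjusted p = 0.023), NAC102 (-0.52, adjusted p = 0.015) and NAC046 (-0.65, adjusted p = 0.032), all from limma. As deposited, these 3 genes had adjusted p-values of 0.053, 0.053 and 0.052. With the replicate number as a block, on the deposited scale, the values were 0.0135, 0.0345 and 0.0143 (limma). RD26, which shares targets with NAC019 and NAC055, had 41.9, 46.1 and 36.0 TPM in scl15 and 35.0, 51.5 and 38.9 TPM in WT. ATAF2 had 53.7, 54.6 and 39.1 TPM in scl15 and 41.3, 61.2 and 42.3 TPM in WT. The ranges of both genes overlapped, with log2 fold changes of -0.0031 and 0.03.

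**Figure D2:**
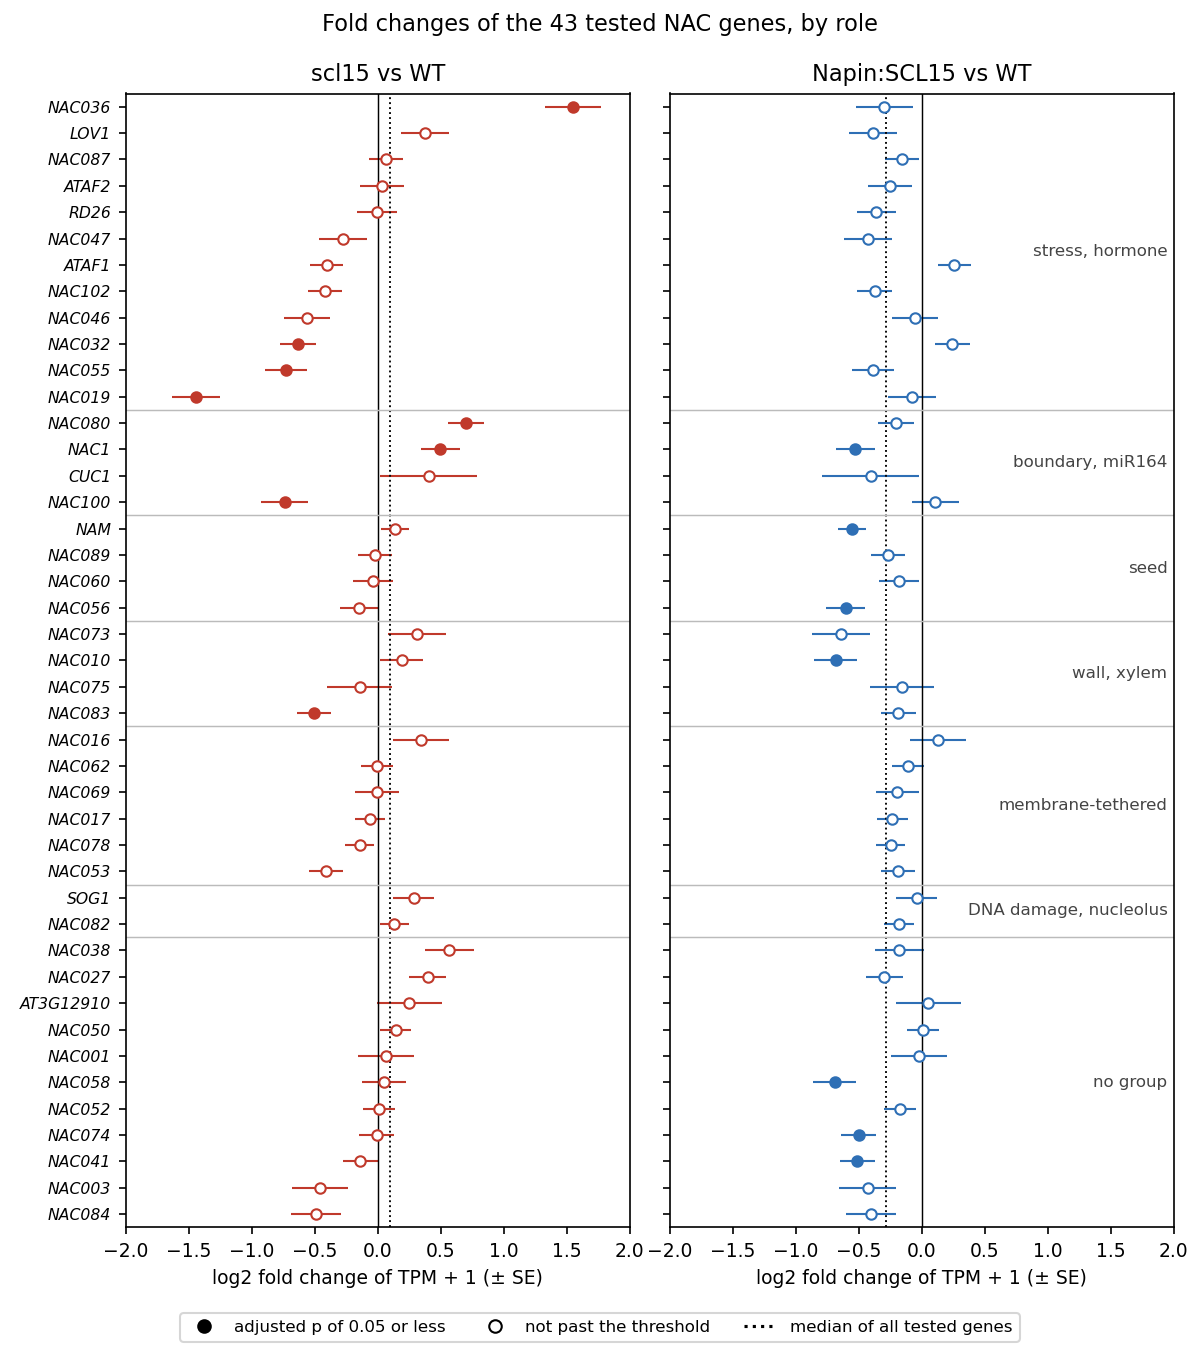
Log2 fold change of TPM + 1 with its standard error for the 43 tested NAC genes, scl15 against WT on the left and Napin:SCL15 against WT on the right, in order of role. Filled points passed the threshold and the dotted line is the median of all genes tested; in scl15 the points spread from -1.44 for NAC019 to 1.55 for NAC036, while in Napin:SCL15 most lie near the median of -0.28.

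The 250 bases upstream of the annotated start of NAC019, NAC055 and NAC032 are shown because these 3 stress regulators fell together in scl15. Capitals mark ACGTG, the core of the element through which abscisic acid and jasmonate regulators of the bZIP and bHLH families bind, read on both strands. The sequences are RefSeq TAIR10.1, 5′ to 3′ on the gene's own strand.
NAC019, chr1:19698483-19698732, minus strand: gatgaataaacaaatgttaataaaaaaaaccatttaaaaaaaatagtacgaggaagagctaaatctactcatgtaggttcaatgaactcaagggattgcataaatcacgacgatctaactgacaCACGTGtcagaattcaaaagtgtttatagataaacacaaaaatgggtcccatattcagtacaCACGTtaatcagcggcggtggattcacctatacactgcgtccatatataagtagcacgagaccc
NAC032, chr1:29099589-29099838, plus strand: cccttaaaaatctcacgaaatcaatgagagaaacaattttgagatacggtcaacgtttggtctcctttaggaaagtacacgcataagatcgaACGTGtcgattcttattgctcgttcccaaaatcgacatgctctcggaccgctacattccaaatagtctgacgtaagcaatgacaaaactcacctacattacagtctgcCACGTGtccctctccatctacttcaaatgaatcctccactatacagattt
NAC055, chr3:5234207-5234456, plus strand: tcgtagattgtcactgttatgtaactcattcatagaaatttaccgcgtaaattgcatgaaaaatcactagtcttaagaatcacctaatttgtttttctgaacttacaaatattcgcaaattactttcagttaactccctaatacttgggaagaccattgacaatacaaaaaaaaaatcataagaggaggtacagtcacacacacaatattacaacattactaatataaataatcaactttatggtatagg

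NAC019 and NAC032 each held 3 matches on the 2 strands, and in each gene 2 of the 3 overlap as the palindrome CACGTG. NAC055 held none in this window, so the match was not common to the 3 genes. At least 1 match was found in 15 of the 43 tested members, which is 34.9%, and in 22.9% of the 27443 coding genes with such a window. A match is a run of letters and not a measured binding site.

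NAC019 and NAC055 each lie beside one of the seed integument regulators. NAM and NAC019 follow each other on chromosome 1 in the same orientation with 6333 bases between them, and NAC055 and NAC056 do so on chromosome 3 with 7235 bases between them. No other annotated coding gene lies in either interval. NAM had 68.2, 64.4 and 66.6 TPM in scl15, against 56.5, 66.1 and 58.5 TPM in WT, with overlapping ranges and a log2 fold change of 0.14 ± 0.11 (adjusted p = 0.46, limma). NAC056 had 475, 590.3 and 413 TPM in scl15, against 507, 646 and 478 TPM in WT, also overlapping, with a log2 fold change of -0.15 ± 0.15 (adjusted p = 0.59, limma).

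The ratio of neighbours within a library does not change when the library is divided by 1 factor, as in median-ratio scaling. Quantile normalization can change it. NAC019 over NAM was 0.550, 0.776 and 0.477 in scl15, 2.28, 2.51 and 2.75 in Napin:SCL15 and 1.63, 2.18 and 1.61 in WT. NAC055 over NAC056 was 0.183, 0.166 and 0.166 in scl15, 0.316, 0.298 and 0.285 in Napin:SCL15 and 0.237, 0.285 and 0.254 in WT. The scl15 libraries were the lowest for both pairs and did not overlap with WT. Those of Napin:SCL15 were above WT in every library for the pair NAC019 and NAM, while for NAC055 and NAC056 the lowest Napin:SCL15 ratio lay at the highest WT ratio. The pairs were picked after their values were seen, so these ratios are descriptions and carry no test.

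**Figure D3:**
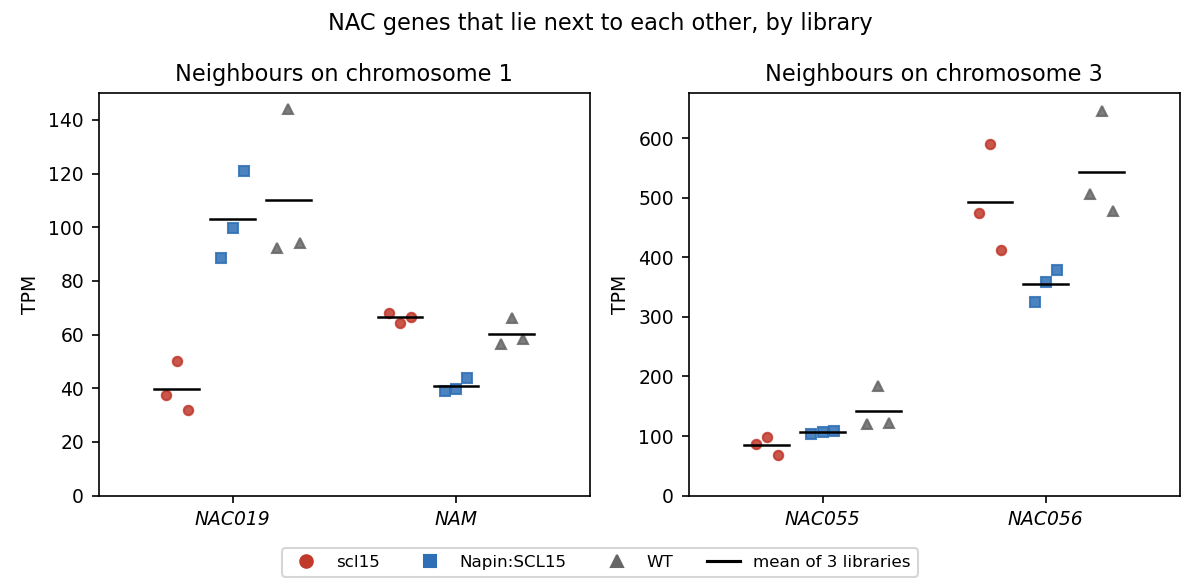
TPM in each library for the neighbours NAC019 and NAM on chromosome 1 and for NAC055 and NAC056 on chromosome 3, with scl15 left, Napin:SCL15 in the middle and WT right, and bars for the mean of 3 libraries. NAC019 averages 39.7 TPM in scl15, 103 TPM in Napin:SCL15 and 110.2 TPM in WT, whereas NAM averages 66.4, 40.9 and 60.4 TPM in the same order.

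The boundary and meristem group held 6 genes, and 4 were tested. CUC1, CUC2 and CUC3 set the borders between organs and the shoot meristem, NAC1 acts in auxin-dependent lateral root formation, and NAC080 and NAC100 are relatives known mainly as targets of miR164. The annotated mature miRNA is shown with its seed, bases 2 to 8, in capitals. Below it stands the best match to its reverse complement in each member transcript that came within 4 mismatches, with letters that form no Watson-Crick pair in capitals, 5′ to 3′ on the gene's strand (RefSeq, TAIR10.1).
miR164a, chr2:19520770-19520790, plus strand: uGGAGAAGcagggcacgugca
NAC080, chr5:2436958-2436978, plus strand: tTTacgtgccctgcttctcca
NAC1, chr1:20947142-20947162, minus strand: AgcacgtAccctgcttctcca
NAC100, chr5:24701687-24701707, minus strand: tCTacgtgccctgcttctcca
AT3G12977, chr3:4145631-4145651, plus strand: AgcaTgtAccctgcttctcca
CUC1, chr3:5111137-5111157, plus strand: AgcacgtgTcctgTttctcca
CUC2, chr5:21902301-21902321, minus strand: AgcacgtgTcctgTttctcca

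All 6 sites lie in the coding sequence of the gene's last exon, and the stretch opposite the seed was complete in 4 of them, with 1 mismatch there in CUC1 and CUC2. NAC080, NAC1 and NAC100 had 2 mismatches each, and AT3G12977, CUC1 and CUC2 had 3. Among 27444 annotated coding genes, 13 held a site within 4 mismatches. CUC3 held none. miR164b-5p has the same 21 bases as miR164a. The 3 precursor genes MIR164A, MIR164B and MIR164C were listed at 0 in every library, and mature miRNAs were not measured by these libraries.

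The members with a site did not move together in scl15. NAC080 had 85.7, 85.3 and 77.9 TPM in scl15, against 44.5, 54.6 and 53.8 TPM in WT, and NAC1 had 15.7, 18.3 and 20.6 TPM in scl15, against 11.0, 14.6 and 12.2 TPM in WT. Both were higher in scl15 with no overlap of the groups, with log2 fold changes of 0.70 ± 0.14 (adjusted p = 0.0042, limma) and 0.50 ± 0.15 (adjusted p = 0.042, limma). NAC080 stayed past the threshold under all 19 alternatives, whereas NAC1 lost it under 10 of them, median-ratio scaling among them (adjusted p = 0.098, limma). 2 annotated genes on the opposite strand overlap NAC1, so its value is uncertain in all comparisons. NAC100 had 9.77, 12.8 and 10.6 TPM in scl15, against 15.0, 21.9 and 20.9 TPM in WT. It fell in scl15 (log2 fold change -0.74 ± 0.19, adjusted p = 0.015, limma), and the call was lost without scl15 replicate 1 (adjusted p = 0.075), without WT replicate 2 (0.066) or without WT replicate 3 (0.053).

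NAC080 and NAC100, whose sites both have 2 mismatches, were called in opposite directions. NAC100 over NAC080 was 0.114, 0.151 and 0.136 in scl15, 0.434, 0.505 and 0.469 in Napin:SCL15 and 0.338, 0.401 and 0.389 in WT. The scl15 ratios lay below and the Napin:SCL15 ratios above all 3 WT ratios. This pair, too, was picked after its values were seen. CUC1 had 3.28, 2.08 and 4.89 TPM in scl15, 1.94, 0.184 and 3.13 TPM in Napin:SCL15 and 2.15, 1.44 and 3.37 TPM in WT, with overlap throughout. CUC2 and CUC3 were at most 0.213 and 0.526 TPM in any library.

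**Figure D4:**
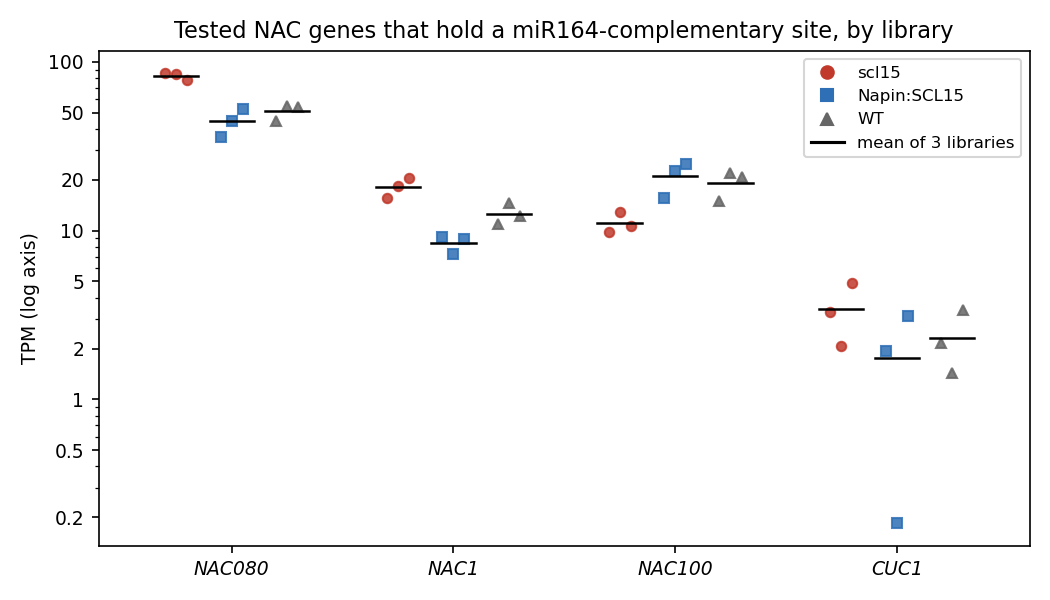
TPM on a log axis in each library for the 4 tested NAC genes with a miR164-complementary site, with scl15 left, Napin:SCL15 in the middle and WT right, and bars for the mean of 3 libraries. NAC080 and NAC1 are highest in scl15 and NAC100 is lowest there, while the groups of CUC1 overlap.

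Regulators of secondary walls and xylem held 7 genes, of which 4 were tested. NAC083, the repressor of vessel formation, had 109.6, 117 and 120.5 TPM in scl15, against 148, 199 and 152 TPM in WT. The groups did not overlap, and it fell in scl15 with a log2 fold change of -0.51 ± 0.14 (adjusted p = 0.023, limma). The call was lost without scl15 replicate 1 (adjusted p = 0.095), without WT replicate 2 (0.101) and without the abundance trend (0.056). A gene on the opposite strand overlaps NAC083, and it is not given whether counting used strand. NAC010 (SND3) and NAC073 (SND2), activators of secondary wall genes, were not past the threshold in scl15, with log2 fold changes of 0.19 and 0.31.

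Of the 6 membrane-tethered members that the description rule matched, all tested, none was past the threshold against WT in either line as deposited. Of all genes, 15.5% were called in scl15 and 25.1% in Napin:SCL15. NTL8, a membrane-tethered gene outside the rule, was lower in both lines (log2 fold changes -0.96 and -1.93, adjusted p = 0.011 and 0.00019, limma). The other 6 tested NAC genes of the lists outside the rule were not past the threshold against WT as deposited. NAC078, a regulator of proteasome stress, had 40.9, 41.4 and 38.5 TPM in scl15, 39.5, 39.6 and 33.2 TPM in Napin:SCL15 and 43.9, 47.6 and 42.1 TPM in WT. NAC017, which carries signals from mitochondria, had 41.7, 44.0 and 35.9 TPM in scl15, 37.4, 32.8 and 37.0 TPM in Napin:SCL15 and 43.4, 44.2 and 39.0 TPM in WT. Their adjusted p-values were 0.47 and 0.79 in scl15 and 0.13 and 0.17 in Napin:SCL15 (limma). NAC053, the partner of NAC078 in proteasome stress, missed the threshold in scl15 as deposited (log2 fold change -0.41, adjusted p = 0.054, limma) and was called lower under 5 of the 19 alternatives, median-ratio scaling among them (-0.50, adjusted p = 0.027). At an unadjusted p under 0.05, 15 of all 43 tested members (34.9%) passed in scl15, against 27.9% of all genes, and 12 (27.9%) in Napin:SCL15, against 39.3% of all genes.

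The groups of DNA damage and nucleolar stress, root cap and phloem gave no call against WT. In the first, 2 members were tested, where 15.5% of all genes were called in scl15 and 25.1% in Napin:SCL15. SOG1, the central regulator of the DNA damage response, had 5.78, 4.89 and 6.86 TPM in scl15, 3.70, 4.74 and 4.91 TPM in Napin:SCL15 and 4.71, 4.54 and 4.51 TPM in WT. NAC082, which responds to disturbed ribosome biogenesis, averaged 30.8 ± 2.94 TPM in scl15, 24.5 ± 1.36 TPM in Napin:SCL15 and 28.0 ± 0.788 TPM in WT (SD, n = 3). No member of the root cap or phloem groups was tested. The root cap regulators SMB and FEZ reached 0.472 and 0.547 TPM at most, and the phloem regulators NAC020 and NAC086 reached 0.227 and 0.488 TPM.

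In Napin:SCL15 siliques, 7 NAC genes were lower than in WT and none was higher as deposited, while with median-ratio scaling none was lower and ATAF1 and NAC032 were higher. The 7 falls are 16.3% of the 43 tested, against 25.1% of all genes called in this comparison, 23.4% being lower and 1.68% higher. With median-ratio scaling the 2 rises stand against 6.89% of all genes called, 3.3% being higher and 3.58% lower. The median log2 fold change of the tested members was -0.23 as deposited, against -0.28 over all genes, and 0.08 with median-ratio scaling, against -0.002. Without WT replicate 2, 3 members were lower, where 2673 of all 16555 genes were. With the replicate number as a block 10 members were lower, where 4929 of all 16555 genes were, against 3871 without the block. The added members were NAC055 (adjusted p = 0.0305), RD26 (0.0423) and NAC102 (0.042).

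Both seed integument regulators were among the 7. NAM had 38.9, 39.7 and 43.9 TPM in Napin:SCL15, against 56.5, 66.1 and 58.5 TPM in WT. NAC056 had 326, 359 and 379 TPM in Napin:SCL15, against 507, 646 and 478 TPM in WT. Neither gene's groups overlapped, and the log2 fold changes were -0.55 ± 0.11 (adjusted p = 0.0042, limma) for NAM and -0.60 ± 0.15 (adjusted p = 0.013, limma) for NAC056. With median-ratio scaling they were -0.22 (adjusted p = 0.24) and -0.27 (adjusted p = 0.35). The call of NAC056 was also lost without WT replicate 2 (adjusted p = 0.051). The 6 seed coat markers summed to 54.3 to 57.7 TPM in Napin:SCL15 and to 65.2 to 80.4 TPM in WT. As deposited 1 of them was lower, where 23.4% of all genes were called lower, and their part in these values was not tested. NAC060 and NAC089, which act in sugar responses of seedlings, were not past the threshold in either line on either scale.

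NAC010 had 2.85, 2.65 and 3.61 TPM in Napin:SCL15, against 5.85, 5.17 and 5.36 TPM in WT. The groups did not overlap (log2 fold change -0.68 ± 0.17, adjusted p = 0.011, limma), but with median-ratio scaling the value was -0.42 (adjusted p = 0.13). NAC073 had 1.23, 2.17 and 1.44 TPM in Napin:SCL15, against 2.81, 2.70 and 3.62 TPM in WT, and missed the threshold (log2 fold change -0.64 ± 0.23, adjusted p = 0.056, limma). Markers of xylem vessels and fibres summed to 67.1 to 81.0 TPM in Napin:SCL15 and 126 to 138 TPM in WT. As deposited 5 of these 6 were lower, where 23.4% of all genes were called lower. With median-ratio scaling the laccase gene LAC4 alone of the 6 was called lower. Markers of the pod wall, replum and dehiscence zone summed to 513 to 613 TPM in Napin:SCL15 and 712 to 1094 TPM in WT. Of these, 4 of 7 were lower as deposited, against the same 23.4% of all genes. The part of these tissues in the values of NAC010 and NAC073 was not tested.

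The other 4 genes called lower were NAC058, NAC1, NAC041 and NAC074. NAC058 had the largest fall of the 7, with 5.38, 4.24 and 3.01 TPM in Napin:SCL15, against 7.83, 6.9995 and 7.02 TPM in WT (log2 fold change -0.69 ± 0.17, adjusted p = 0.012, limma). NAC1 had 9.15, 7.24 and 8.91 TPM in Napin:SCL15, against 11.0, 14.6 and 12.2 TPM in WT (log2 fold change -0.53 ± 0.15, adjusted p = 0.025, limma). The groups of NAC058 and of NAC1 did not overlap. NAC041, for which no role is given here, had 48.8, 48.4 and 63.7 TPM in Napin:SCL15, against 67.9, 88.2 and 74.2 TPM in WT (log2 fold change -0.51 ± 0.14, adjusted p = 0.017, limma). NAC074 (KIRA1), a regulator of cell death in the stigma, averaged 8.75 ± 0.528 TPM in Napin:SCL15 and 12.8 ± 1.45 TPM in WT (SD, n = 3; log2 fold change -0.50 ± 0.14, adjusted p = 0.021, limma). All 4 calls were lost with median-ratio scaling and with quantile normalization. NAC1, NAC041 and NAC074 also lost theirs without WT replicate 2, at adjusted p-values of 0.093, 0.068 and 0.071, and each also without either of 2 other libraries.

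ATAF1 and NAC032 had the highest fold changes of the 43 tested members in Napin:SCL15. ATAF1, an activator of abscisic acid and senescence genes, had 125, 142 and 149.6 TPM in Napin:SCL15, against 112, 134 and 103 TPM in WT. NAC032 had 24.97, 27.2 and 25.01 TPM in Napin:SCL15, against 19.0, 26.4 and 19.9 TPM in WT. Both genes' groups overlapped as deposited, with log2 fold changes of 0.26 ± 0.13 (adjusted p = 0.16, limma) and 0.24 ± 0.14 (adjusted p = 0.21, limma). With median-ratio scaling the values were 0.59 (adjusted p = 0.018) and 0.56 (adjusted p = 0.031). 2 genes on the opposite strand overlap ATAF1.

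**Figure D5:**
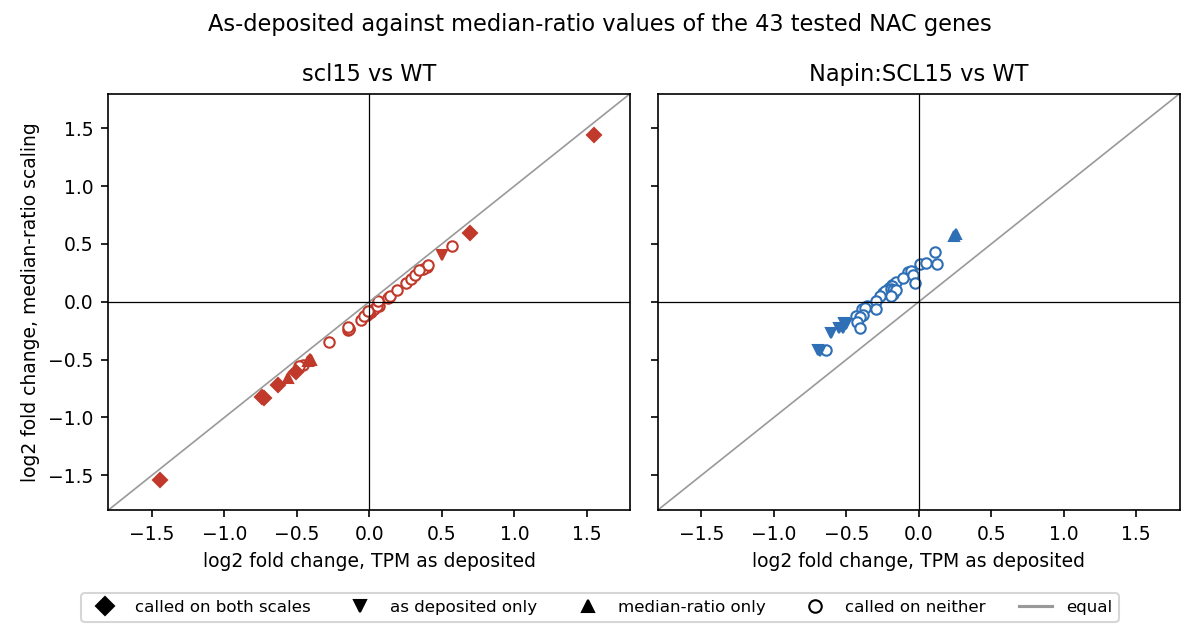
Log2 fold change of the 43 tested NAC genes from TPM as deposited on the horizontal axis and after median-ratio scaling on the vertical axis, for scl15 against WT on the left and Napin:SCL15 against WT on the right, with a line where both are equal. In scl15 7 genes are called on both scales (diamonds), whereas in Napin:SCL15 all points lie above the line and no gene is called on both.

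Set directly against scl15, Napin:SCL15 had 5 NAC genes higher and 14 lower as deposited, and 9 higher and 5 lower with median-ratio scaling. The 19 calls are 44.2% of the tested members, against 49.2% of all genes called, 43.1% being lower and 6.16% higher. The 14 calls with median-ratio scaling are 32.6%, against 27.8%, of which 14.5% were lower and 13.3% higher. On both scales NAC019, NAC032, NAC100, ATAF1 and NAC046 were higher in Napin:SCL15, and NAC036, NAC1, NAC073, NAC080 and NAC010 were lower. NAC019 had the largest rise (log2 fold change 1.37 ± 0.19, adjusted p = 8.1e-05, limma) and NAC036 the largest fall (-1.85 ± 0.22, adjusted p = 2.2e-05, limma). NAC032 rose by 0.88 ± 0.14, NAC100 by 0.85 ± 0.19 and ATAF1 by 0.66 ± 0.13 on the log2 scale. NAC046, which acts in chlorophyll breakdown, had 26.9, 29.1 and 33.2 TPM in Napin:SCL15, against 16.5, 27.3 and 19.3 TPM in scl15, and its groups overlapped (log2 fold change 0.51 ± 0.18, adjusted p = 0.034, limma). That call was lost without scl15 replicate 1 (adjusted p = 0.164), scl15 replicate 3 (0.0845), Napin:SCL15 replicate 2 (0.0697) or Napin:SCL15 replicate 3 (0.0999).

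Among the falls, NAC1 had 9.15, 7.24 and 8.91 TPM in Napin:SCL15, against 15.7, 18.3 and 20.6 TPM in scl15 (log2 fold change -1.02 ± 0.15, adjusted p = 0.00013, limma). NAC080 had 35.9, 44.6 and 52.9 TPM in Napin:SCL15, against 85.7, 85.3 and 77.9 TPM in scl15 (log2 fold change -0.90 ± 0.14, adjusted p = 0.0002, limma). In both genes every Napin:SCL15 library was below every scl15 library. NAC073 and NAC010 fell by 0.95 ± 0.23 and 0.87 ± 0.17. LOV1, a repressor of flowering, NAC038 and NAC058 fell by 0.76 ± 0.19, 0.75 ± 0.19 and 0.74 ± 0.17, and these 3 calls were lost with median-ratio scaling. The other 6 genes lower as deposited (NAM, NAC027, NAC074, NAC056, NAC041 and NAC082) were also not called with median-ratio scaling, where NAC041 and NAC082 changed sign, to 0.05 and 0.10. NAC027 overlaps AT1G64100 on the same strand and shares 79.4% of its 50-base stretches with that gene's transcripts, so its value is uncertain. The 2 lines share no library in this comparison, but the contrasts with WT share the WT libraries.

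Of the 53 members not tested, 3 had a group mean of at least 1 TPM. NAC090, a gene of salicylic acid and senescence responses, had 1.58, 0.958 and 3.18 TPM in scl15, 0.268, 0 and 0 TPM in Napin:SCL15 and 0.379, 0.138 and 0.0760 TPM in WT. NAC048 had 1.27, 1.08 and 1.08 TPM in scl15, 0.189, 0.230 and 0.104 TPM in Napin:SCL15 and 0.469, 0.294 and 0.753 TPM in WT. Both were highest in the scl15 libraries, without overlap, at levels where TPM rest on few reads. NAC097 had 0.552, 0.126 and 1.63 TPM in scl15, 0.585, 0.0854 and 0.387 TPM in Napin:SCL15 and 0.870, 1.27 and 1.59 TPM in WT, and scl15 overlapped with WT.

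Known targets of the NAC factors were read as separate lists. Of 6 tested targets of NAC019, NAC055, RD26 and ATAF1, 4 were lower in scl15 and none was higher, where 6.31% of all genes were called lower, and the list's median log2 fold change was -0.59, against 0.10 over all genes. BSMT1, which methylates salicylic acid, averaged 8.81 ± 1.98 TPM in scl15 and 33.0 ± 7.98 TPM in WT (SD, n = 3; log2 fold change -1.79 ± 0.21, adjusted p = 5.4e-05, limma). ERD1, a plastid protease regulator induced by dehydration, averaged 75.2 ± 11.6 TPM in scl15 and 119 ± 19.7 TPM in WT (log2 fold change -0.66, adjusted p = 0.020, limma). NCED3 (abscisic acid synthesis) had a log2 fold change of -0.63 (adjusted p = 0.021, limma), and SGR1 (chlorophyll breakdown) one of -0.55 (adjusted p = 0.0073, limma). ICS1 (0.01, adjusted p = 0.97, limma) and AMY1 (-0.38, adjusted p = 0.073, limma) were not past the threshold in scl15 as deposited. The counts and the median take no account of whether a factor activates or represses a gene. With median-ratio scaling 5 of the 6 were lower in scl15, where 7.77% of all genes were.

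In Napin:SCL15 the same list had 1 gene higher and 3 lower as deposited, and 1 higher and none lower with median-ratio scaling. Of all genes, 1.68% were called higher and 23.4% lower as deposited, and 3.3% and 3.58% with median-ratio scaling. The rise was ICS1, which makes the precursor of salicylic acid, at 8.82 ± 1.64 TPM in Napin:SCL15 and 4.98 ± 0.899 TPM in WT (SD, n = 3; log2 fold change 0.71 ± 0.18, adjusted p = 0.011, limma). The falls were BSMT1 (log2 fold change -0.94), NCED3 (-0.85) and AMY1, an amylase (-0.54).

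Of 11 tested secondary wall and xylem targets, 6 were lower in Napin:SCL15 and none was higher, where 23.4% of all genes were called lower, and the list's median log2 fold change was -0.53, against -0.28 over all genes. With median-ratio scaling 1 was lower, where 3.58% of all genes were. LAC4, a laccase that polymerises lignin, averaged 46.3 ± 6.08 TPM in Napin:SCL15 and 88.0 ± 2.76 TPM in WT (SD, n = 3; log2 fold change -0.92 ± 0.12, adjusted p = 0.00036, limma), and it was the gene called lower with median-ratio scaling (-0.59, adjusted p = 0.011). CESA8, a cellulose synthase subunit, and LAC17 had log2 fold changes of -0.83 and -0.81 as deposited. In scl15 LAC17 alone was lower (log2 fold change -0.77, adjusted p = 0.0039, limma), where 6.31% of all genes were called lower. The 6 xylem markers summed with NAC010 are all members of this list, so those sums are no separate measurement.

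Of 8 tested targets of NAC017 and NAC013, none was past the threshold in Napin:SCL15 on either scale. Of all genes, 25.1% were called there as deposited and 6.89% with median-ratio scaling. In scl15 OM66, a protein of the outer mitochondrial membrane, was higher (log2 fold change 1.09 ± 0.22, adjusted p = 0.0037, limma) and UGT74E2, an auxin glucosyltransferase, was lower (-0.69 ± 0.17, adjusted p = 0.011, limma). Of all genes, 9.18% were called higher and 6.31% lower, so 1 of 8 in each direction was near the background. With median-ratio scaling 1 was higher and 2 lower (6.15% and 7.77% of all genes), AOX1A being added (-0.60, adjusted p = 0.029, limma). None of the 7 SOG1 targets reached a mean of 1 TPM over all libraries. STM and KNAT6, homeobox genes that work with the CUC genes, were lower in Napin:SCL15 as deposited (log2 fold changes -0.64 and -0.72, adjusted p = 0.043 and 0.028, limma), where 23.4% of all genes were called lower. Neither was called with median-ratio scaling. Of 12 further NAC genes on the lists that the description rule did not match, 7 were tested, and NTL8, a membrane-tethered regulator of germination, was the one gene lower in both lines as deposited. Among all genes, 6.31% were called lower in scl15 and 23.4% in Napin:SCL15. NTL8 was near the level filter. It averaged 1.43 ± 0.244 TPM in scl15, 0.271 ± 0.348 TPM in Napin:SCL15 and 3.78 ± 0.822 TPM in WT (SD, n = 3), and it was lower in both lines on both scales.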

How the data were processed

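Siliques of 3 groups with 3 libraries each were measured by RNA-seq. The authors extracted total RNA with a column kit and prepared stranded mRNA libraries, per the labels' protocols. The deposited values are TPM per gene, per the file headers, and the submitters' processing notes name build TAIR 10. No source used here names the software for alignment and counting or says whether strand was used. TPM keep no read depth, so the depth behind each value is unknown.

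R 4.3.3 and its limma package (3.58.1) were used to fit log2(TPM + 1), letting the prior variance follow abundance, in 1 fit of all 9 libraries (6 residual degrees of freedom). A mean of 1 TPM over all libraries was required, which 16555 genes reached, and p-values were adjusted by Benjamini-Hochberg over all of them. Fold changes are either line over WT, or Napin:SCL15 over scl15, and this scale understates the change of low genes. The fit was also run on simulated independent values. These held no shift of scale and no effect of replicate number, so that run does not bear on either. Replicate origin beyond the labels is not given, and p-values cover only the spread of these libraries. Same-numbered Napin:SCL15 and WT libraries deviated together (r from 0.127 to 0.179), so the block is given beside that comparison.

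The named genes were every called member (at most 14 per direction against WT and 8 between the lines), the 8 members with the highest mean, up to 2 for each role without a call, untested members with a group mean of 1 TPM, and up to 3 called genes per target list. The members, role groups, target lists and markers were chosen with earlier results of these data known. Positions and sequences are RefSeq TAIR10.1, handled in Python 3.11.15 with pandas 2.3.3, and matplotlib 3.10.9 drew the figures. Of the tested members, 8 overlap another annotated gene and 5 share at least 1 stretch of 50 bases with another gene. The 19 alternatives covered scaling, pseudocount, filter, block, trend, the libraries fitted and leaving libraries out.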

Additional observations from a re-analysis of the deposited data

How the results depend on the processing

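Against 5 members lower in scl15 than in WT, 9 were lower with median-ratio scaling, with quantile normalization, with a filter of a mean of 5 TPM and with the replicate block. Of all genes, 1045 of 16555 were lower as deposited, and 1286, 1274, 882 of 10582 and 1306 under these settings in the same order. Leaving out 1 library at a time gave 3 to 9 members lower and 2 to 4 higher, and 769 to 1107 lower and 875 to 1705 higher among all genes. Against 7 lower and 0 higher in Napin:SCL15 than in WT, median-ratio scaling and quantile normalization each gave 0 lower and 2 higher. Leaving out 1 library gave 3 to 8 members lower and 0 higher, where 2010 to 4104 of all genes were lower and 142 to 298 higher. The replicate block gave 10 members lower and 0 higher, where 4929 of all genes were lower and 352 higher. Between Napin:SCL15 and scl15, median-ratio scaling and quantile normalization each gave 9 members higher and 5 lower, against 5 and 14. Of all 16555 genes, 2194 were higher and 2408 lower with median-ratio scaling, and 2207 and 2442 with quantile normalization, against 1019 and 7127. With 1 library left out, 4 to 7 members were higher and 11 to 15 lower. Among all genes the ranges were then 864 to 1023 and 5574 to 7156. Without replicate 3 of both lines together, 4 members were higher and 16 lower, where 860 and 6737 of all genes were. With the replicate block 7 members were higher and 16 lower, where 1119 and 7744 of all genes were. The cause was not tested beyond the shift of the median of all genes. Same-numbered libraries of scl15 and WT had deviations correlated at r from -0.06 to 0.35, and those of scl15 and Napin:SCL15 from 0.074 to 0.161. Outside their own group, 8 of 9 libraries were closest to one with the same number, a hint from the data that they may be paired. Replicate origin is not given, so the block is an alternative and not the main fit in any comparison. Over the 19 alternatives, the called members kept their call 136 times and lost it 16 times in scl15, 108 and 24 times in Napin:SCL15, and 315 and 39 times between the lines. In 4 more cases between the lines the sign changed and the call was lost, for NAC041 (0.052 with median-ratio scaling, 0.015 with quantile normalization) and NAC082 (0.104 and 0.060). With 3 libraries per group and unknown depth, genes near 1 TPM were the least certain.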
